A study of Drosophila melanogaster with 91 samples.

Results

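Segment polarity genes of the fruit fly Drosophila melanogaster were followed through embryogenesis in 91 single embryos. The genes were chosen by name: en, inv, wg, hh, ptc, gsb, nkd and mid. Of these 8, 7 were found in the count table by the identifier that the gene name table pairs with the symbol, out of 15682 gene identifiers in all. They were en (engrailed, FBgn0000577), inv (invected, FBgn0001269), gsb (gooseberry, FBgn0001148), hh (hedgehog, FBgn0004644), ptc (patched, FBgn0003892), nkd (naked cuticle, FBgn0002945) and mid (midline, FBgn0261963). The identifier of wg (wingless) was not matched, and wg is not analysed here.

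Segment polarity genes act within each segment after the pair-rule genes have drawn the segmental pattern. Cells of the posterior compartment express the transcription factors en and inv and send the Hedgehog ligand to their anterior neighbours, where it binds the receptor Patched and relieves the inhibition of Smoothened. Those neighbours send back the Wingless ligand, which maintains en, and both pathways switch on their own inhibitors, ptc in the Hedgehog pathway and nkd in the Wingless pathway.

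The study took 1 embryo every 15 min from -15 to 1335 min counted from cellularization, when membranes close around the nuclei of the early embryo. The labels name no strain, mutation or treatment, and all embryos had the chorion removed and were kept under a microscope at 25 °C until freezing. RNA of each whole embryo was read by CEL-Seq, an amplifying method that counts barcoded 3' ends of polyadenylated transcripts. Embryos were grouped into 7 windows of 13 consecutive embryos: window 1 from -15 to 165 min, window 2 from 180 to 360, window 3 from 375 to 555, window 4 from 570 to 750, window 5 from 765 to 945, window 6 from 960 to 1140 and window 7 from 1155 to 1335. Levels are in CPM (counts per 1000000 counts of fly genes), and levels of different genes are not compared because the reads come from transcript ends. CPM lack the scaling between libraries that the tests apply (TMM), so ratios of CPM can differ from the log2 fold changes. From window 2 to window 7 falls looked larger in CPM than in the tests, and rises looked smaller. This held for every gene named below that the main test of those windows covered. Shares of the highest window mean are in CPM and carry the same gap.

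The libraries held between 3662 and 3308015 gene counts, with a median of 1644070, and in the median library 3 counts correspond to 1.82 CPM. Several libraries stood apart or went against their label. The embryo at 120 min held 3662 gene counts, and synthetic spike-in RNAs took 96.0% of its gene and spike-in counts. The embryo at 825 min held 362 CPM of bcd, a maternal transcript of the egg, and 0 counts of every segment polarity gene. In window 1 bcd lay between 208 and 590 CPM in the 5 embryos up to 45 min, whereas the embryo at 60 min had 1.52 CPM and the embryo at 150 min had 85.3 CPM. Spike-ins exceeded 6% in 27 libraries, with 2, 2, 6, 4, 1, 6 and 6 of them in windows 1 to 7.

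**Figure D1:**
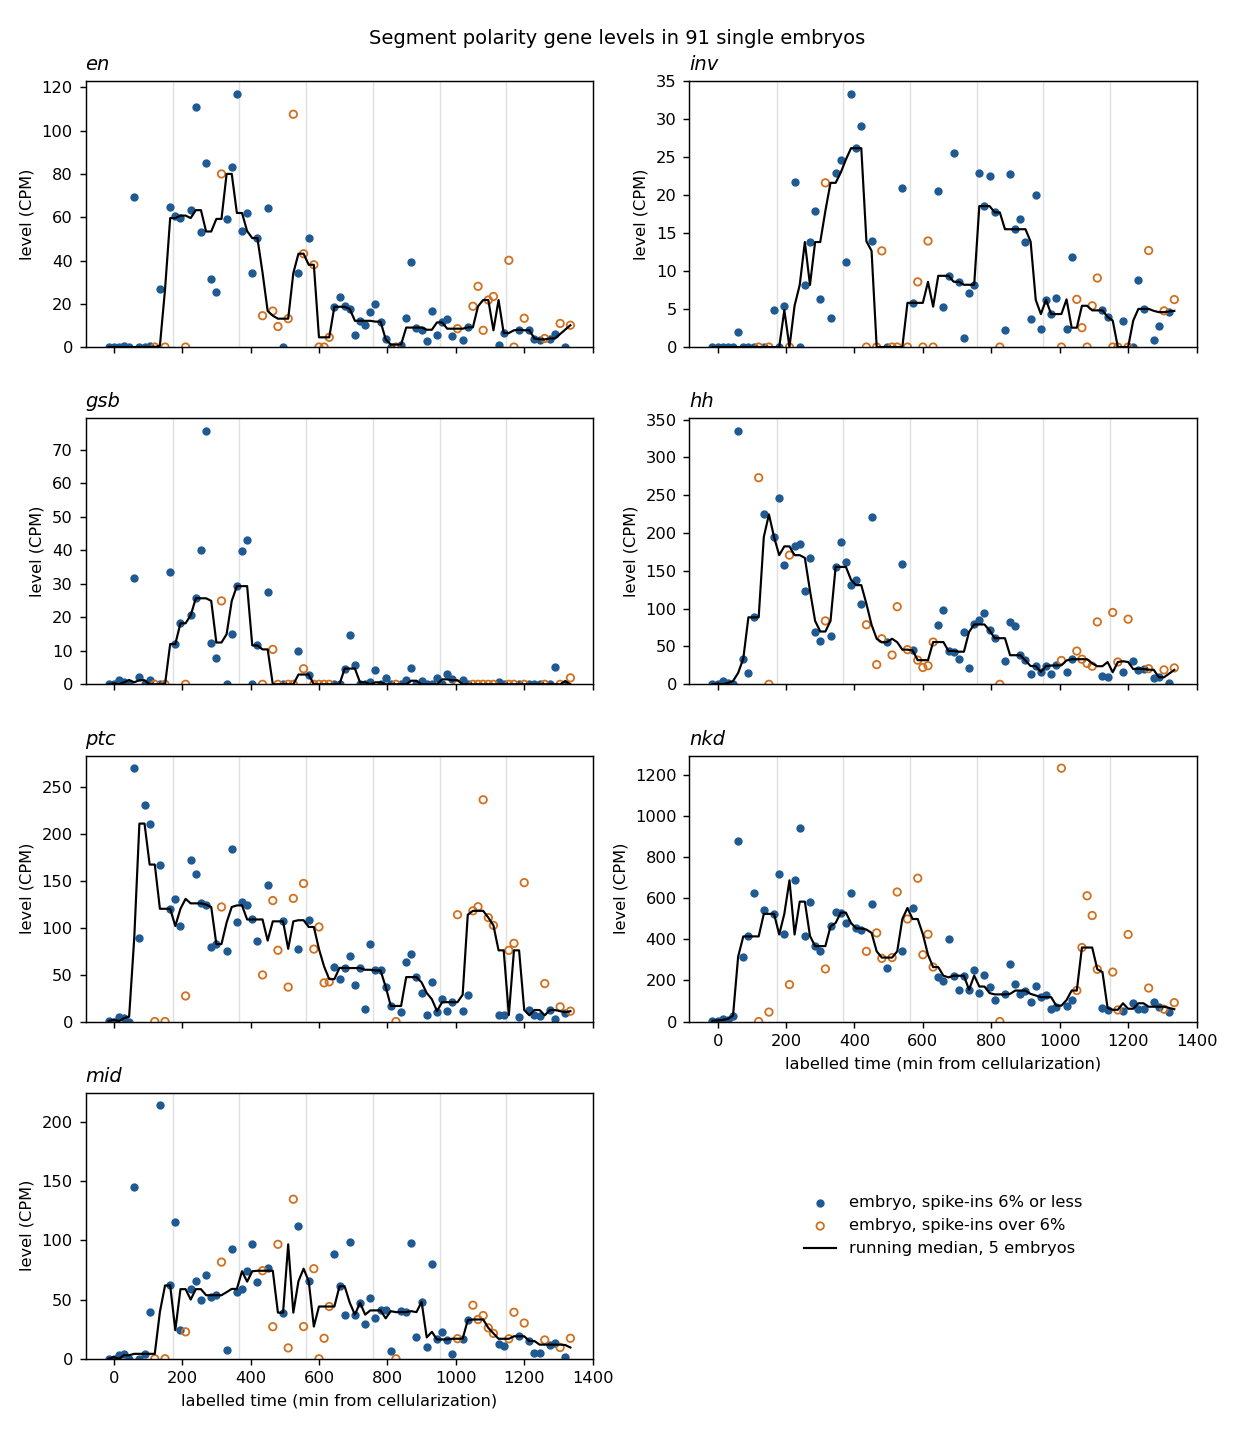
Level of each segment polarity gene (CPM, linear axis) against labelled time in min, 1 point per embryo, with open points for the 27 libraries over 6% spike-ins, a black running median over 5 embryos, and grey lines between the 7 windows. ptc and nkd reached their onset at 75 min, hh, mid and en at 135, 150 and 165 min, and gsb and inv at 195 and 255 min. In windows 6 and 7 the high ptc and nkd points were open ones.

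All 7 genes varied with labelled time by edgeR's quasi-likelihood F-test of a spline with 5 degrees of freedom over the 91 embryos. The background was high, since 82.1% of the 8717 genes tested were called at an adjusted p under 0.05. The adjusted p was 1.46e-07 for gsb, 2.1e-06 for inv, 8.58e-05 for en, 0.000513 for hh, 0.00205 for nkd, 0.00866 for ptc and 0.024 for mid. With the library pool as a covariate 5 of the 7 were called, against a background of 36.1%, with adjusted p of 0.052 for ptc and 0.212 for mid. With a stiffer spline of 3 degrees of freedom 5 were called, against 80.5%, and nkd had an adjusted p of 0.092 and ptc of 0.334.

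The genes did not share a single time course. The mean level was highest in window 2 for en, gsb, hh, ptc and nkd, in window 3 for mid and in window 5 for inv, although the running median of inv peaked at 390 min, in window 3, and 6 of the 13 libraries of that window exceeded 6% spike-ins. In window 1 the means stood at 3.85% of the highest window mean for inv, 19.5% for en and 25.1% for gsb, against 53.0% for mid, 52.9% for nkd, 63.2% for hh and 73.7% for ptc. The mean of hh there includes 273 CPM of the embryo at 120 min, which was 1 count, so its share is too high. In window 7 gsb stood at 2.55% of its highest window mean and en at 13.3%, while the other 5 genes stood between 20.4% and 28.8%. Those means include the libraries over 6% spike-ins. In the libraries with at most 6%, the median of ptc was 125 CPM in window 2 and 6.68 CPM in window 7. That of en was 60.8 and 3.55 CPM, so ptc fell about as far as en there. The median of hh was 158 and 15.9 CPM, and that of mid 56.3 and 11.95 CPM. In whole embryos fewer cells of a type and less RNA per cell cannot be told apart.

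**Figure D2:**
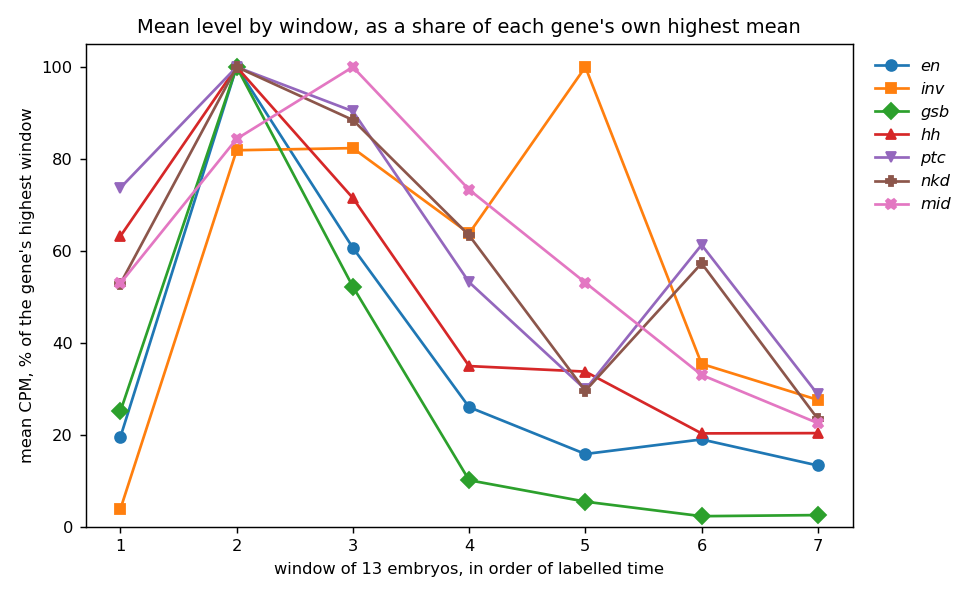
Mean level in each window of 13 embryos as a percentage of the gene's own highest window mean, 1 line per gene. gsb and en ended lowest, at 2.55% and 13.3%, and inv had its highest mean in window 5. ptc and nkd had a second maximum in window 6, at 61.3% and 57.3%. In window 6 and again in window 7, 6 of 13 libraries held over 6% spike-ins. By medians of the libraries with at most 6%, ptc fell about as far as en from window 2 to window 7.

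The running median over 5 embryos gave an order of appearance, taking as onset the time at which it first reached 50% of its peak. ptc and nkd, the inhibitors that each pathway induces, had their onset at 75 min. hh, the ligand, followed at 135 min, the T-box gene mid at 150 min and en at 165 min. gsb, a paired-type homeobox gene, reached it at 195 min and inv, the paralog of en, at 255 min. Onsets depended little on the setting: 3 of 49 recomputed under other settings moved by over 30 min (those of inv, hh and mid, in 1 setting each), against 8 of 42 times of the peak and 22 of 49 times of decline. In each of those settings ptc and nkd preceded the other 5 genes, and hh preceded en.

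The running median rests on single embryos, whose values in window 1 were as follows. nkd lay at 3.94, 1.86, 12.9, 7.78 and 28.8 CPM in the embryos at -15, 0, 15, 30 and 45 min, and at 316, 414 and 628 CPM in those at 75, 90 and 105 min. ptc lay between 0 and 5.15 CPM in the same 5 embryos up to 45 min and at 89.3, 231 and 211 CPM at 75, 90 and 105 min. The levels of both genes up to 45 min therefore lay below those of the next embryos, apart from the embryos at 60, 120 and 150 min that stood apart.

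hh, mid and en were still low when ptc and nkd were high. hh lay at 33.9, 15.1 and 88.5 CPM at 75, 90 and 105 min and at 225 and 195 CPM at 135 and 165 min. mid had 0, 4.19 and 39.7 CPM in those 3 earlier embryos and 214 and 61.9 CPM at 135 and 165 min. en had 0, 0 and 0.610 CPM at 75, 90 and 105 min, where 0.610 CPM was 1 count, and 26.7 and 64.7 CPM at 135 and 165 min. The embryo at 165 min was also the earliest, apart from that at 60 min, in which gsb passed 3 CPM, with 33.4 CPM, and inv was counted at all, with 4.87 CPM.

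The embryo labelled 60 min did not follow this order. It held 878 CPM of nkd, 270 of ptc, 335 of hh, 145 of mid, 69.2 of en, 31.8 of gsb and 2.02 of inv, so that all 7 genes were counted in it. The embryo labelled 150 min held 46.0 CPM of nkd and 0 counts of the other 6 genes. The embryo at 120 min held 1 count of hh and 0 counts of the other 6, and nothing can be read from it at that depth.

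**Figure D3:**
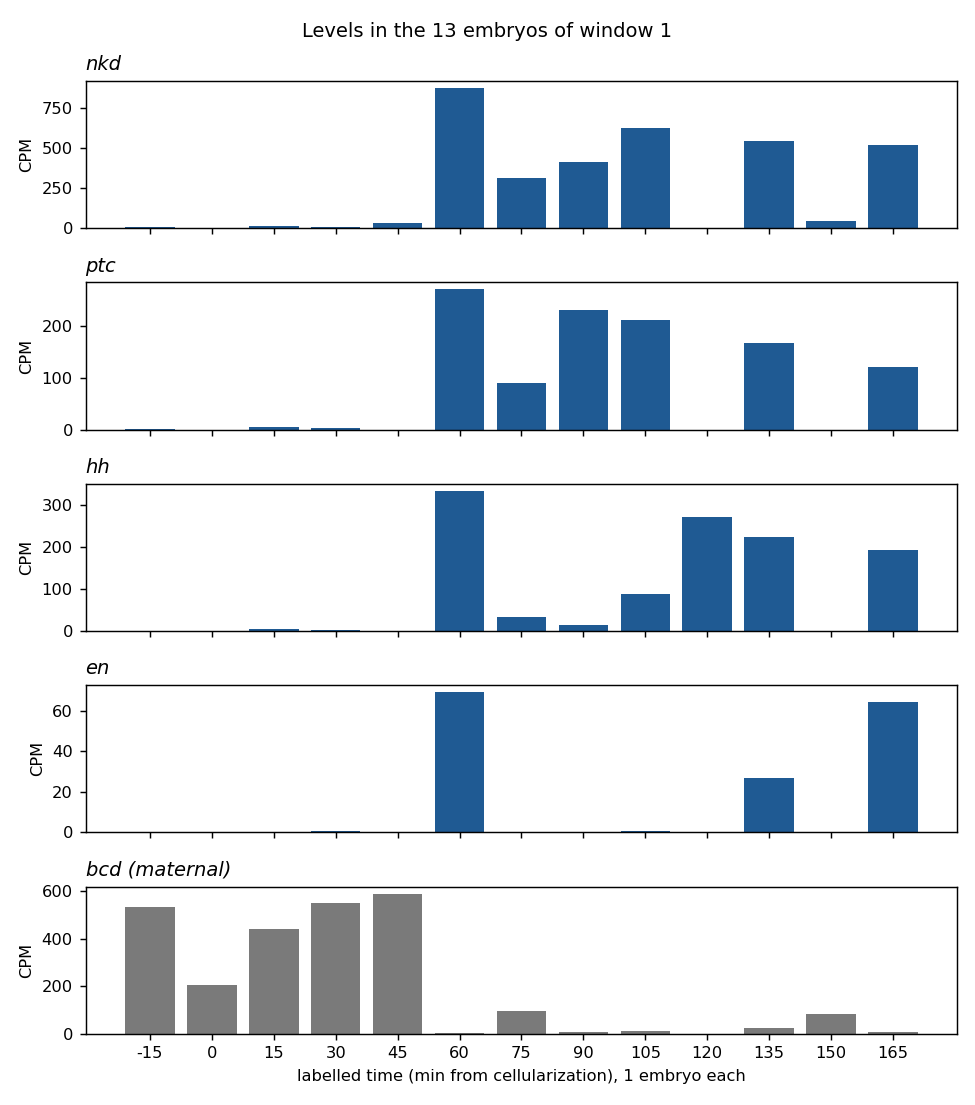
Levels (CPM, linear axes starting at 0) of nkd, ptc, hh, en and the maternal transcript bcd in each of the 13 embryos of window 1, 1 bar per embryo in order of labelled time. nkd and ptc were high at 75 to 105 min, where en was at or near 0, and bcd was below 2 CPM in the embryo at 60 min and at 85.3 CPM in that at 150 min, against their neighbours' order.

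The change with labelled time inside window 1 was measured as a straight line through its 13 embryos, and 4 of the 7 genes had enough counts to be tested. The log2 change per 60 min was 2.21 ± 0.94 (SE) for nkd, 2.38 ± 1.19 for ptc, 2.04 ± 1.02 for hh and 2.17 ± 1.00 for mid. By edgeR's quasi-likelihood test 0 of 4 were called, with 2 at an unadjusted p under 0.05 and adjusted p between 0.0922 and 0.151, while 4.41% of the 6483 genes tested were called as risen and 17.0% as fallen. The median of all genes was -0.21 per 60 min, and the split of calls moved with the scaling: 20.6% of calls were rises, against 4.35% when libraries were scaled by spike-ins and 9.5% by DESeq2's size factors. DESeq2 called 2 of the 4 (nkd and ptc), where it called 997 of 6483 genes as risen. limma voom called 2 (nkd and mid), where it called 641 of 6483 genes as risen.

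Without the embryos at 60 and 150 min, all 4 rose by edgeR, where 9.13% of 6625 genes were called as risen. The log2 change per 60 min was then 3.38 ± 0.58 for nkd (adjusted p by edgeR 0.00047), 3.67 ± 0.77 for ptc (0.00198), 3.55 ± 0.46 for hh (6.5e-05) and 3.33 ± 0.57 for mid (0.000451). Both embryos were singled out after their values were seen, levels of these genes included, so the calls without them are not independent evidence. Leaving out the libraries over 6% spike-ins, at 120 and 150 min, gave rises of nkd, at 3.23, and of ptc, at 3.38, against a background of 12.5%.

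Between window 2 and window 1 the spread within window 1 was large. The lowest, median and highest levels of en were 0, 60.8 and 117 CPM in window 2, against 0, 0 and 69.2 CPM in window 1. Those of gsb were 0, 18.2 and 75.6 CPM in window 2, against 0, 0 and 33.4 CPM in window 1. Those of hh were 57.9, 158 and 246 CPM in window 2, against 0, 15.1 and 335 CPM in window 1. The ranges of all 3 genes overlapped, and the highest hh level was that of the embryo labelled 60 min.

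By edgeR 0 of the 6 genes tested differed between windows 2 and 1, with 2 (en and gsb) at an unadjusted p under 0.05. The background was 11.1% of 5739 genes called as risen and 14.0% as fallen, and 44.2% of calls were rises, against 29.5% with spike-in scaling and 31.3% by DESeq2's size factors. The log2 fold change was 2.18 ± 0.91 for en (adjusted p = 0.0768), 1.77 ± 0.87 for gsb (0.132), 0.91 ± 0.79 for hh (0.421), 0.83 ± 0.66 for nkd (0.367), 0.56 ± 0.83 for mid (0.65) and 0.34 ± 0.74 for ptc (0.773). DESeq2 called 0 of them and limma voom called all 6 as risen, with log2 fold changes from 3.10 to 5.41, where it called 19.5% of genes as risen. Without the embryos at 60 and 150 min en was called, at 2.76 ± 0.98 (adjusted p by edgeR 0.0366), where 14.1% of genes were called as risen. That fit leaves out the highest en level of window 1, that of the embryo at 60 min. en and gsb had medians of 0 CPM in window 1 and passed the filter mainly through window 2. Their tests could therefore hardly give a fall, and the call of en is no independent evidence of a rise.

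inv was too low to pass the filter in that comparison. It had 11 counts in window 1, in 2 of 13 embryos, and 310 counts in window 2, in 10 of 13. Its mean level was 11.3 ± 9.5 CPM in window 2 and 0.530 ± 1.418 CPM in window 1 (SD, n = 13 each). With no filter on low counts its log2 fold change was 4.08 ± 1.00 (adjusted p by edgeR 0.00305), where 2311 of 11503 genes were called as risen.

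Median levels from window 2 to window 4 differed in how far they stood apart. In windows 2, 3 and 4 the median level was 60.8, 34.4 and 16.4 CPM for en and 18.2, 4.65 and 0 CPM for gsb. For hh it was 158, 103 and 44.1 CPM and for ptc 122, 109 and 57.2 CPM. For nkd it was 462, 447 and 250 CPM and for mid 56.3, 73.9 and 47.4 CPM. The window 3 medians of ptc, nkd and mid thus stood near or above those of window 2, whereas those of en, gsb and hh lay below. The 6 libraries of window 3 over 6% spike-ins had lower medians than the other 7, with ranges that overlapped. en had a median of 15.6 CPM in those 6 libraries, against 50.4 CPM in the other 7, gsb 0 against 11.6 CPM and hh 53.0 against 138 CPM. The medians of inv were 0 against 20.9 CPM, of mid 50.8 against 73.9, of nkd 386 against 453 and of ptc 103 against 109. The highest en level of window 3, 108 CPM at 525 min, lay among those 6 libraries.

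After its peak, the running median was first below 50% of the peak at 405 min for gsb, 435 min for en, 450 min for inv, 465 min for nkd and 525 min for mid. It was below that level at 285 min for hh and at 180 min for ptc. These times did not mark a lasting decline, since only the running median of gsb stayed below that level afterwards. The last time at or above it was 420 min for hh, 555 min for en, 675 min for mid, 915 min for inv and 1095 min for ptc and nkd. Without the libraries over 6% spike-ins the decline of en and inv moved to 570 min, that of nkd to 540 min and that of mid to 705 min.

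The early passage of hh lay in a few embryos. hh had 69.8, 57.9, 83.8 and 63.8 CPM in the embryos at 285, 300, 315 and 330 min and 155, 189 and 162 CPM in those at 345, 360 and 375 min. In both pairs of neighbouring windows 0 of the segment polarity genes were called by edgeR, and DESeq2 and limma voom also called 0 of them. For window 3 against window 2, 0 of 7 had an unadjusted p under 0.05 and the background was 2.13% risen and 1.39% fallen. For window 4 against window 3, 2 of 6 did, hh with a log2 fold change of -0.86 ± 0.29 (adjusted p = 0.174) and ptc with -0.64 ± 0.25 (0.239), against 0.252% risen and 0.0180% fallen.

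en and inv lie next to each other in the genome, with 0 protein-coding genes between them. Their window means ran differently after window 2, but no test compared the genes with each other. Both encode homeodomain transcription factors of the posterior compartment. The mean level of en from window 1 to window 7 was 12.4, 63.8, 38.7, 16.6, 10.1, 12.1 and 8.51 CPM. That of inv was 0.530, 11.3, 11.3, 8.79, 13.8, 4.88 and 3.80 CPM. inv therefore had its highest mean in window 5, when en stood at 15.8% of its own. Those means include the libraries over 6% spike-ins, 1 in window 5 and 6 in window 3. In the libraries with at most 6%, the median of inv was 17.3 CPM in window 5, below the 20.9 CPM of window 3, and its running median peaked in window 3, at 375 to 405 min, under every setting.

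In window 5 inv was counted in 12 of 13 embryos, with a lowest, median and highest level of 0, 16.8 and 23.0 CPM, the 0 being that of the embryo at 825 min. In window 4 it had 0, 8.21 and 25.5 CPM, so the ranges overlapped. The log2 fold change of inv in window 5 against window 4 was 0.75 ± 0.53 (adjusted p by edgeR 0.463) and that of en -0.65 ± 0.61 (0.582). Over the 91 embryos Spearman's rho between en and inv was 0.422. As a description of libraries that share depth and position in time, this was lower than that between en and hh, at 0.698, or en and mid, at 0.740.

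In window 5 against window 4 edgeR called 0 of 6 genes, with 1 (nkd) at an unadjusted p under 0.05, where 0% of 6275 genes were called as risen and 0.0956% as fallen. nkd had 0, 138 and 278 CPM as lowest, median and highest level in window 5, against 153, 250 and 697 CPM in window 4. Its log2 fold change was -0.97 ± 0.38 (adjusted p = 0.215). Without the embryo at 825 min it was -0.96 ± 0.24 with an adjusted p by edgeR of 0.0229, where 274 of 6423 genes were called as fallen. DESeq2 called nkd at -1.08, where it called 281 of 6275 genes as fallen, and limma voom called 0 of the 6 genes. Within library pool 6 alone (20 embryos) the value of nkd was -0.57 ± 0.46 (adjusted p = 0.998). Of the 9 alternatives 3 called nkd, but those without shallow libraries and without the embryo at 825 min were the same fit.

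The second maximum of ptc and nkd in window 6 lay in libraries with a high share of spike-ins. In the 6 libraries of window 6 over 6% spike-ins, ptc lay between 103 and 237 CPM with a median of 116, against 6.49 to 28.6 CPM with a median of 11.5 in the other 7. nkd lay between 151 and 1232 CPM with a median of 438 in those 6 libraries, against 57.3 to 127 CPM with a median of 71.9 in the other 7. The ranges did not overlap for either gene.

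The other genes differed less between the same libraries. hh had a median of 32.4 CPM (23.9 to 82.5) in the 6 libraries, against 16.3 CPM (9.01 to 33.8) in the other 7, and mid 29.6 CPM against 15.5 CPM. en had a median of 20.3 CPM against 6.49 CPM, and inv 4.00 CPM against 4.83 CPM. gsb was at 0 counts in all 6.

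Markers of other tissues and of stress moved with these libraries. The summed level of 5 muscle and heart genes lay between 60.6 and 620 CPM in the 6 libraries, against 1948 to 4601 CPM in the other 7, with Mhc, the muscle myosin heavy chain, at 9.70 to 326 CPM against 1510 to 2585 CPM. The summed level of 5 neuroblast genes lay between 261 and 806 CPM, against 49.0 to 118 CPM. The stress-induced chaperone genes Hsp26 and Hsp68 lay at 360 to 1728 CPM and 190 to 600 CPM, against 5.42 to 50.5 CPM and 0 to 90.8 CPM. The 6 maternal egg genes summed to 0 to 42.5 CPM, against 0 to 4.53 CPM, with bcd at 0 in 4 of the 6 libraries and in 4 of the 7. The part of embryo stage, library quality or stress in the levels of ptc and nkd was not tested.

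In window 6 against window 5, edgeR called 0 of 6 genes, with 3 (ptc, nkd and inv) at an unadjusted p under 0.05, and limma voom called 0. The background was 0.484% risen and 0.0645% fallen, and 88.2% of calls were rises, against 2.54% with spike-in scaling and 75% by DESeq2's size factors. The log2 fold change of ptc was 1.44 ± 0.58 (adjusted p = 0.181) and that of nkd 1.33 ± 0.54 (0.187). DESeq2 called both as risen, at 1.55 and 1.46, where it called 427 of 6198 genes as risen. Without the libraries over 6% spike-ins the direction turned, to -0.92 ± 0.40 for ptc (adjusted p by edgeR 0.177) and -0.67 ± 0.18 for nkd (0.0998). The value for inv was -1.14 ± 0.47 with all embryos (adjusted p = 0.197) and -1.05 ± 0.43 without those libraries.

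In window 7 against window 6 edgeR called 0 of 5 genes, as did DESeq2 and limma voom, with 1 (nkd) at an unadjusted p under 0.05 and a background of 0% in either direction. nkd had a log2 fold change of -1.30 ± 0.52 (adjusted p = 0.326), and -0.15 ± 0.20 without the libraries over 6% spike-ins. In window 7 the 6 such libraries held 11.1 to 148 CPM of ptc and 56.5 to 423 CPM of nkd, against 3.22 to 12.3 CPM and 46.0 to 93 CPM in the other 7. The ranges overlapped here, and the 2 of the 6 with the lowest Hsp68, at 1305 and 1335 min, had 15.7 and 11.1 CPM of ptc.

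**Figure D4:**
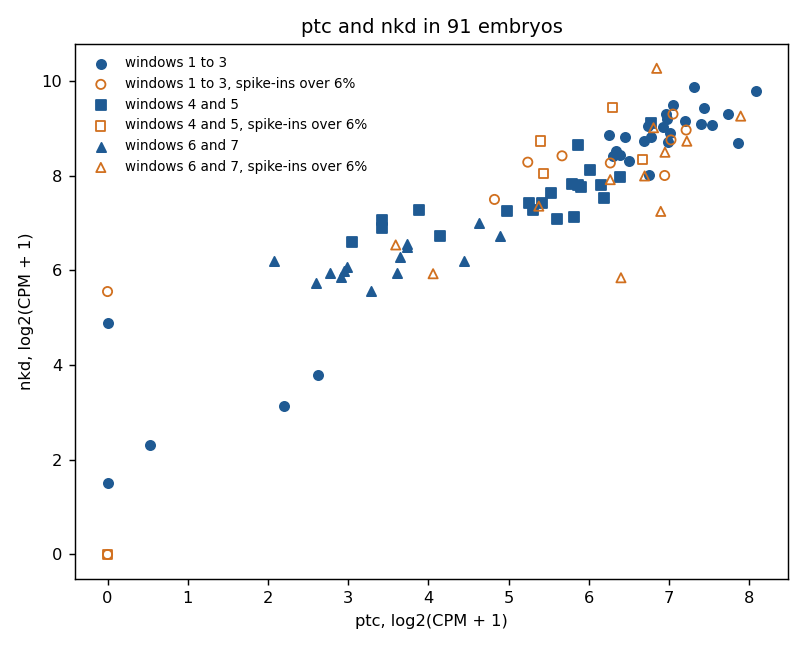
Level of nkd against ptc, both as log2(CPM + 1), in 91 embryos, with a symbol for the windows and open orange symbols for libraries over 6% spike-ins. The 2 genes moved together across embryos, and most open triangles, the late libraries over 6% spike-ins, lay among embryos of earlier windows rather than with the filled triangles.

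ptc and nkd were the closest pair among the 7 genes. Spearman's rho over the 91 embryos was 0.896, and 0.957 over the 64 libraries with at most 6% spike-ins. Over those 64 libraries hh also stood close to both, at 0.857 with ptc and 0.885 with nkd. The lowest values were those of inv, at 0.258 with ptc and 0.283 with nkd over the 64 libraries, and 0.114 and 0.149 over all 91. All these values describe libraries that share depth and position in time.

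The net change to the end of the course was measured in window 7 against window 2. The lowest, median and highest levels of en were 0, 6.04 and 40.1 CPM in window 7, against 0, 60.8 and 117 CPM in window 2. Those of hh were 2.30, 20.1 and 95.0 CPM in window 7, against 57.9, 158 and 246 CPM in window 2. Those of nkd were 46.0, 72.1 and 423 CPM in window 7, against 180, 462 and 941 CPM in window 2. The ranges of all 3 genes overlapped, and the highest levels of window 7 were those of libraries over 6% spike-ins, at 1155 min for en and hh and at 1200 min for nkd.

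Of the 5 genes tested, 4 fell, where 29.7% of 5967 genes were called as fallen and 33.3% as risen. The log2 fold change by edgeR was -2.17 ± 0.51 for en (adjusted p = 0.000529), -1.56 ± 0.38 for hh (0.000888), -1.32 ± 0.31 for nkd (0.0006) and -1.12 ± 0.37 for mid (0.00988). For ptc it was -1.06 ± 0.48 (0.0548), which did not pass, although all 7 alternatives called it, with adjusted p from 2.71e-08 to 0.0353. The median over these 5 genes was -1.32, and that over all genes tested was -0.000106. With spike-in scaling the median over all genes was -0.96 and only 26.9% of calls were rises, against 52.8%. All 5 genes were then called, with values from -2.32 to -3.38, where 2909 of 5967 genes were called as fallen. Windows 2 and 7 share no library pool and no sequencing lane, so pool, lane and time cannot be told apart.

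gsb and inv were too low for the filter in that comparison. gsb had 17 counts in window 7, in 2 of 13 embryos, against 633 counts in window 2, in 11 of 13. Without the libraries over 6% spike-ins (18 embryos) both were tested, and 6 of 7 genes fell, against a background of 27.1%. There gsb passed the filter through window 2, with a median of 18.2 CPM against 0 CPM in window 7. Its test could therefore hardly give anything but a fall, so its place among the 6 adds nothing to the count set against 27.1%. In these 18 embryos gsb had a log2 fold change of -3.89 ± 1.02 (adjusted p by edgeR 0.00234) and ptc of -3.07 ± 0.30 (2.71e-08). In these 7 embryos of window 7 and 11 of window 2 the levels did not overlap for ptc, at 3.22 to 12.3 CPM in window 7 against 75.4 to 185 CPM in window 2, nor for en, hh and nkd. inv had -0.58 ± 0.80 (0.541), so a change in either direction was not detectable. With no filter on low counts and all 26 embryos, the 6 genes other than inv were also called, gsb again among them, against 18.9%. The mean of inv was 3.80 ± 3.88 CPM in window 7 and 11.3 ± 9.5 CPM in window 2 (SD, n = 13 each), and 4 of 13 embryos in window 7 had 0 counts.

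**Figure D5:**
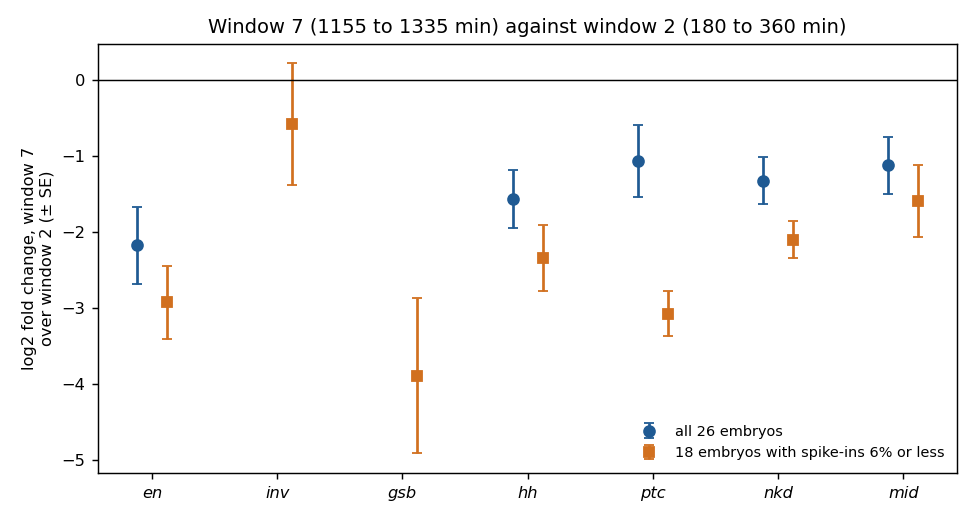
log2 fold change of window 7 over window 2 by edgeR with its SE, for all 26 embryos (circles) and for the 18 embryos with at most 6% spike-ins (squares). inv and gsb have no circle because they did not pass the filter on low counts, and ptc moved from -1.06 to -3.07 when the high spike-in libraries were left out. The square of gsb comes from a test that could hardly give anything but a fall.

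Of the Hedgehog pathway, 15 of 16 listed genes were found. Between window 2 and window 1, 2 of 13 tested rose and 0 fell, near the 11.1% of all genes called as risen. They were dally, a heparan sulfate proteoglycan, by a log2 fold change of 2.1 ± 0.72 (adjusted p by edgeR 0.0302) and ihog, a co-receptor, by 1.61 ± 0.38 (0.00246). dally was not called within library pool 4 alone or without the libraries over 6% spike-ins (adjusted p of 0.075 and 0.0764), nor ihog with spike-in scaling (0.208). The median of the list was -0.26, against -0.07 for all genes. Between window 7 and window 2, 8 of 12 fell and 1 rose, with a list median of -1.32, where 29.7% of all genes fell and 33.3% rose. The largest were ihog at -3.75 ± 0.50, the kinesin-like cos at -2.03 ± 0.43, the kinase fu at -1.96 ± 0.48 and its inhibitor Su(fu) at -1.80 ± 0.39. ihog averaged 3.35 ± 3.24 CPM in window 7 and 73.3 ± 41.6 CPM in window 2 (SD, n = 13 each).

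All 18 genes of the Wingless pathway list were found, other than the ligand itself. Between window 2 and window 1, 3 of 17 rose and 3 fell, near the 11.1% and 14.0% of all genes. The receptor genes fz3 and fz2 rose by 1.68 ± 0.47 and 1.64 ± 0.59 (adjusted p by edgeR 0.00911 and 0.0419), with adjusted p of 0.388 and 0.0634 under spike-in scaling. pygo, a nuclear cofactor, fell by 1.5 and Axn, part of the complex that degrades Armadillo, fell by 1.42 on the log2 scale. fz2 lost its call in 5 of 10 alternatives and Axn in 3 of 10. Within window 1, 4 of 18 rose and 1 fell, where 4.41% and 17.0% of all genes did, led by Notum, a secreted inhibitor of Wnt ligands, at 2.04 ± 0.42 per 60 min (adjusted p by edgeR 0.00347, and 0.0686 with spike-in scaling).

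Between window 7 and window 2, 8 of 17 Wingless pathway genes fell and 3 rose, where 29.7% and 33.3% of all genes did, with a list median of -0.59. Notum fell to 16.9 ± 18.8 CPM in window 7, against 161 ± 72.8 CPM in window 2. With the TMM scaling of the test its log2 fold change was -2.51 ± 0.41, a smaller fall than in CPM. wls, which carries Wnt ligands to the cell surface, changed by -2.33 ± 0.29. Apc and sgg, which act in the degradation of Armadillo, rose by 2.53 ± 0.61 and 1.76 ± 0.26 (adjusted p by edgeR 0.000761 and 1.95e-06). With spike-in scaling neither was called, at 1.26 and 0.55.

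Wnt ligands other than Wingless were counted as well. Between window 2 and window 1, 3 of 4 tested rose, where 11.1% of all genes did: Wnt2 by 4.51 ± 0.91, Wnt4 by 3.81 ± 0.83 and Wnt5 by 1.46 ± 0.46 (adjusted p by edgeR 0.000579, 0.0012 and 0.0185). Wnt2 and Wnt4 had medians of 0 and 0.419 CPM in window 1 and passed the filter mainly through window 2. Their tests could therefore hardly give a fall. The call of Wnt5 was lost in 2 of 10 alternatives, spike-in scaling and library pool 4 alone, with adjusted p of 0.137 and 0.0754. Between window 7 and window 2, Wnt2 fell by 2.86 on the log2 scale. Wnt4 rose by 0.99 ± 0.42 (adjusted p by edgeR 0.0423), but its value was -0.40 with spike-in scaling and 0.03 without the libraries over 6% spike-ins.

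Pair-rule genes set the pattern that segment polarity genes refine. Between window 2 and window 1, eve fell to 7.80 ± 10.52 CPM in window 2, against 40.3 ± 42.8 CPM in window 1 (SD, n = 13 each), a log2 fold change of -2.49 ± 0.88 (adjusted p by edgeR 0.0365), and 0 of 8 rose, where 14.0% of all genes fell and 11.1% rose. That call was lost in 4 of 10 alternatives, with adjusted p up to 0.174. Between window 3 and window 2, slp1 and run fell, by 1.38 and 1.00 on the log2 scale, where 1.39% of all genes fell, and the other 5 of 7 tested were not called. slp1 lost its call in 5 of 8 alternatives and run in 3 of 8, both among them with spike-in scaling and without the libraries over 6% spike-ins. Between window 7 and window 2, 5 of 6 fell, where 29.7% of all genes did, and hry rose, by 2.90 ± 0.37, also with spike-in scaling, at 1.77 ± 0.43.

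Of the partners and targets of these genes in the segment, bowl and spi rose in window 2 against window 1, by 2.93 ± 0.75 and 2.04 ± 0.45 (adjusted p by edgeR 0.00452 and 0.00138). bowl is a zinc finger gene and spi a ligand of the EGF receptor. The other 4 of 6 tested were not called, and 11.1% of all genes rose. Between window 7 and window 2, spi and tsh, a zinc finger gene of the trunk, fell by 1.49 and 0.73, and 0 of 6 rose, so that 2 of 6 fell where 29.7% of all genes did. The 3 cofactors of Engrailed also fell in that comparison, with its background of 29.7%, gro by 1.72, exd by 1.14 and hth by 0.95 on the log2 scale.

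For each gene, other genes with a similar pattern were sought by Spearman's rho of log2(CPM + 1) over the 91 embryos. The 4991 candidates left out the 7 segment polarity genes themselves. The highest were trn, noc and gcm for en, at 0.780, 0.779 and 0.766, and vvl, trh and vig for inv, at 0.740, 0.724 and 0.717. For hh they were nonA, yellow-e3 and Inx2, at 0.751, 0.750 and 0.739, and for ptc corn, Lac and trn, at 0.854, 0.850 and 0.849. nkd stood closest to trn, corn and SoxN, at 0.930, 0.904 and 0.891. mid stood closest to zfh1, tup and gcm, at 0.761, 0.733 and 0.730. The values for gsb were the lowest of the 7, at 0.660 with Eogt, 0.605 with comm and 0.599 with Atac3. trn stood in the lists of en, ptc and nkd. Among the 7 genes themselves, rho was 0.896 between ptc and nkd, above all genes listed for ptc and above SoxN for nkd. Between en and mid it was 0.740, above tup and gcm for mid.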

How the data were processed

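Transcript counts of 91 single embryos were taken from the table of read counts per gene that the authors deposited, with no normalization. Build BDGP5, CASAVA 1.8, Bowtie2 2.1.0 and HTSeq 0.5.4p3 were used, per the submitters' processing notes. The sources used here do not give their order, the strand setting or any use of molecular identifiers, so reads of overlapping or antisense genes cannot be told apart. Lines that name no gene held 36.1% of all counts and were left out of library sizes and tests, as were 92 spike-ins.

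Tests used edgeR 4.0.16 (quasi-likelihood, TMM, filterByExpr, Benjamini-Hochberg over all genes tested, threshold 0.05) with limma 3.58.1 and R 4.3.3, and were tested on simulated data. Windows were compared with their 26 embryos alone. Alternatives were DESeq2 1.42.0, limma voom, DESeq2 size factors, spike-in scaling, no filter, other splines, a pool covariate, embryos of 1 library pool, and embryos left out. Libraries with the same library index in the deposited sample sheet were taken as a library pool, and the pools follow labelled time. The sequencing lane follows it as well, with lane 3 up to 645 min and lane 4 from 660 min. A running median over 5 embryos gave the times, with onset and decline at 50% of its peak. All 7 genes are named, with the 3 most similar genes for each and up to 4 called genes per list. Similar genes were taken from outside the 7 (mean of at least 5 CPM, no CG or CR number as symbol). The genes and lists were chosen with earlier results of these data known. The labels do not say whether embryos shared a mother, so a p-value here speaks only of the spread among these embryos, and the spread within a window also holds change over its 195 min. Counting error alone limits genes near 3 counts. Of the gene identifiers, 15002 matched a symbol. No coordinates are given, because the annotation is of another build.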

Additional observations from a re-analysis of the deposited data

How the results depend on the processing

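No paired analysis was possible because the labels pair no embryos and each time has 1 embryo. Of the counts of called genes, 66 values under other settings stayed within 1.5 times the main count and 12 did not; all 12 moved away from 0. In window 2 against window 1 the count was 1 with no filter, 6 with limma voom and 1 without the embryos at 60 and 150 min. It was 1 with no filter in window 4 against window 3 (hh, where 299 of 12573 genes were called as fallen). In window 5 against window 4 it was 1 (nkd) with DESeq2. There it was also 1 (nkd) without shallow libraries and without the embryos at 120 and 825 min, which were the same fit. In window 6 against window 5 it was 2 with DESeq2, and for the trend within window 1 it was 2 with DESeq2, 2 with limma voom, 2 without libraries over 6% spike-ins and 4 without the embryos at 60 and 150 min; the cause was not tested. Of the values of single genes called in the main comparison, 415 kept direction and call, 39 lost the call and 1 turned, Wnt4 in window 7 against window 2, at -0.398 with spike-in scaling. Uncalled values are not in these counts; among them, ptc and nkd turned in window 6 against window 5 without libraries over 6% spike-ins. Leaving out libraries over 6% spike-ins, or the embryos at 60 and 150 min, was chosen after seeing the data. With 1 embryo per time, a library that stands apart cannot be told from a change at that time. Times of onset, peak and decline stayed within 30 min in 107 cases and moved further in 33. Depth limits gsb and inv, which lay at 0 counts in many embryos.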
